A study of Mus musculus with 6 samples.

Results

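The transcription factor genes that mark spinal progenitor domains and interneuron classes were examined in sorted motor neurons of the mouse embryo. The list held 44 genes, fixed by name, and a gene was taken where a row of the array table carried its symbol and no other. By this rule 39 genes were measured, out of 14860 genes with such a row. Every measured gene had 1 row. The other 5 genes, Nkx2-9, Sox14, Pou4f2, Bhlhe22 and En2, were not analysed here; the row of En2 carried a second symbol as well.

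The samples were taken on embryonic day 12 from the lumbar cord of mice that carried the HB9::GFP transgene (line mHB9-Gfp1b), and all 6 samples shared this genotype, age and region. The cord was dissected into columns and fluorescent cells were sorted, giving 3 samples labelled medial and 3 labelled lateral motor neurons, each on 1 array. The HB9 promoter drives the fluorescent protein in motor neurons and, in this kind of line, also in some interneurons, so a sort on fluorescence alone does not limit the sample to motor neurons. The array values are the authors' processed levels on a log2 scale, on which a difference of 1 is a doubling of the signal.

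In the developing cord, secreted signals from the floor plate and the roof plate divide the dividing progenitors into bands along the dorsal to ventral axis, and each band is defined by a combination of homeodomain, paired domain and basic helix-loop-helix factors. Each band then gives rise to a class of neurons with its own set of factors. The ventral classes are the V0, V1, V2 and V3 interneurons and the motor neurons, and the dorsal classes are called dI1 to dI6. Factors of neighbouring bands repress one another, so a motor neuron normally switches off the factors of the interneuron classes beside it.

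Motor neuron genes stood far above the class factors on every array. All 8 genes of a motor neuron list, Mnx1, Isl1, Isl2, Chat, Slc18a3, Slc5a7, Prph and Ret, were above the reference levels described next in both groups, and their mean level per array lay between 10.75 and 10.92. Of the 8, Mnx1 and Isl2 passed the test as higher in the medial samples and Isl1, Prph and Ret as higher in the lateral samples. Markers of other cells differed in how they stood. None of the 7 cycling cell genes measured, none of the 4 blood genes and none of the 6 interneuron transmitter genes was above the first reference in either group on all of its arrays, and 1 of 8 endothelial genes (Esam) and 1 of 8 myeloid genes (Cx3cr1) were. In contrast, 7 of 10 mesenchyme and cartilage genes and 4 of 7 skeletal muscle genes were above it in at least 1 group, as were 8 of 10 progenitor, 5 of 8 sensory neuron and 2 of 5 neural crest genes. The 4 muscle genes include Pax7, which is itself a class factor of the list studied here. The mean level of the mesenchyme list per array ranged from 6.44 to 6.60 in the medial and from 6.55 to 6.65 in the lateral samples, and that of the class factors from 6.39 to 6.55 and from 6.36 to 6.67. The part of such cells in the levels of the class factors was not tested.

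The table holds no detection calls, so levels were read against genes that a motor neuron has no known use for. The first reference was the 809 rows of olfactory, vomeronasal and trace amine receptor genes. A gene was counted as above it in a group where its level exceeded the 95th percentile of those rows on all 3 arrays of the group. That percentile ranged from 6.03 to 6.41 over the 6 arrays. The second reference, chosen after the levels were seen, was 55 rows of transcription factor genes of other organs, such as Pdx1 of the pancreas, Nkx2-5 of the heart and Myod1 of skeletal muscle. Its 95th percentile ranged from 7.19 to 7.44. It shares Myod1 and Myog with the muscle list, Pax1 with the mesenchyme list and Gata1 and Klf1 with the blood list. It is therefore not independent of these lists. The rows of different genes carry different probes, so these references bound a level and do not order genes by their amount of RNA.

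The receptor genes differ from the class factors in base composition. A window of 300 bases around the start of transcription was taken from RefSeq (build GRCm38.p6) for 34 of the 39 class factor genes and for 678 of 808 receptor genes. The median share of G and C in this window was 62.2% for the class factors and 35% for the receptors, and the median number of CG pairs was 17 and 1. For the factor genes of other organs 36 of 55 (65.5%) had a window, fewer than the 80% required here for a comparison of base composition, so that comparison is void. The windows below are those of Evx1, which stood above every reference, and of Pax8 and Barhl2, which had the largest differences between the groups. The last is that of Olfr1093, a receptor gene whose share of G and C equals the median of the receptors. The windows of Evx1 and Pax8 lie below the class factor medians in both measures, and that of Barhl2 above them. CG pairs are in capitals, and each sequence runs 5′ to 3′ on the strand of its gene.
Evx1 (chr6:52313248-52313547, plus strand): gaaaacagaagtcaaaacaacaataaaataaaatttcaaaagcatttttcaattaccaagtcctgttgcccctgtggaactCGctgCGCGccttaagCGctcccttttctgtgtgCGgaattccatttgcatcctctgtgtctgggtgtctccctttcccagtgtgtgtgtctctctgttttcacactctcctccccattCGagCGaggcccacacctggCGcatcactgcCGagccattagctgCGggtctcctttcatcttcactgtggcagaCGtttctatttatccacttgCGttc
Pax8 (chr2:24475550-24475849, minus strand): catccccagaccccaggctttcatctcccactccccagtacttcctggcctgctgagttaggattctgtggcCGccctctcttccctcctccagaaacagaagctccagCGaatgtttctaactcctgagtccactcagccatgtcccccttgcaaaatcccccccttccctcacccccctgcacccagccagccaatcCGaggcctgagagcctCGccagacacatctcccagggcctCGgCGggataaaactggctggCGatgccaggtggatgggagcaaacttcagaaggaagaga
Barhl2 (chr5:106458117-106458416, minus strand): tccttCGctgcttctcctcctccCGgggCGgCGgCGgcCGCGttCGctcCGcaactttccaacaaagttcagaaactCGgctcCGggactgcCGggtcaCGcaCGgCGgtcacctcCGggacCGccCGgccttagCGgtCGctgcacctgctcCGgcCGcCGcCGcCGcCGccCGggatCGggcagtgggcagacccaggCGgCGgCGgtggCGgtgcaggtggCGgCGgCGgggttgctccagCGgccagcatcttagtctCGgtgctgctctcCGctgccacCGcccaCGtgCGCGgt
Olfr1093 (chr2:86782295-86782594, plus strand): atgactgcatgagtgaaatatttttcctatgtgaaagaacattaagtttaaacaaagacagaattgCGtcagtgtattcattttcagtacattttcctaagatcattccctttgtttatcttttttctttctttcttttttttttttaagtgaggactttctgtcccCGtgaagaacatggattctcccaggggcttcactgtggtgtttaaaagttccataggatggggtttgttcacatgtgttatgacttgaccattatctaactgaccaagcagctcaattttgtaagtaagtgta
The Barhl2 window held 42 CG pairs and 73.7% G and C, that of Evx1 12 pairs and 48.7%, that of Pax8 7 pairs and 59.3%, and that of Olfr1093 2 pairs and 35%. Across the 678 receptor genes the level on the array and the G and C share of the window had a Spearman correlation of 0.28, and across the 34 class factors one of 0.03. These are descriptions across genes, which are not independent replicates. The probes lie in exons and not in these windows, and the part of base composition in the levels was not tested.

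The mean levels of the class factor genes over the 6 arrays ran from 4.36 to 8.23, with a median of 6.63. In all, 25 of the 39 genes were above the 95th percentile of the receptor rows in at least 1 group, 23 of them in both, and 14 in neither. Of the 55 factor genes of other organs, 14 were above the same bound in both groups. The median over all rows lay above this bound on every array (6.73 to 6.84, against 6.03 to 6.41). Most rows on each array thus exceeded it, so the count of 25 alone does not set the class factors apart. The share of all rows above it on all 3 arrays of a group was not counted. By the second reference, 8 of the 39 class factors were above in at least 1 group and 7 in both. These were Olig1, Dbx2, Evx1, Evx2, Sox21, Pou4f1 and Gbx2, with Tal1 above in the medial group alone by this count. The count for Tal1 does not show a difference between the groups, since its log2 difference was −0.01 and did not pass. The samples are mixtures of cells, so a level cannot tell fewer cells of a class from less RNA in each cell.

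**Figure D1:**
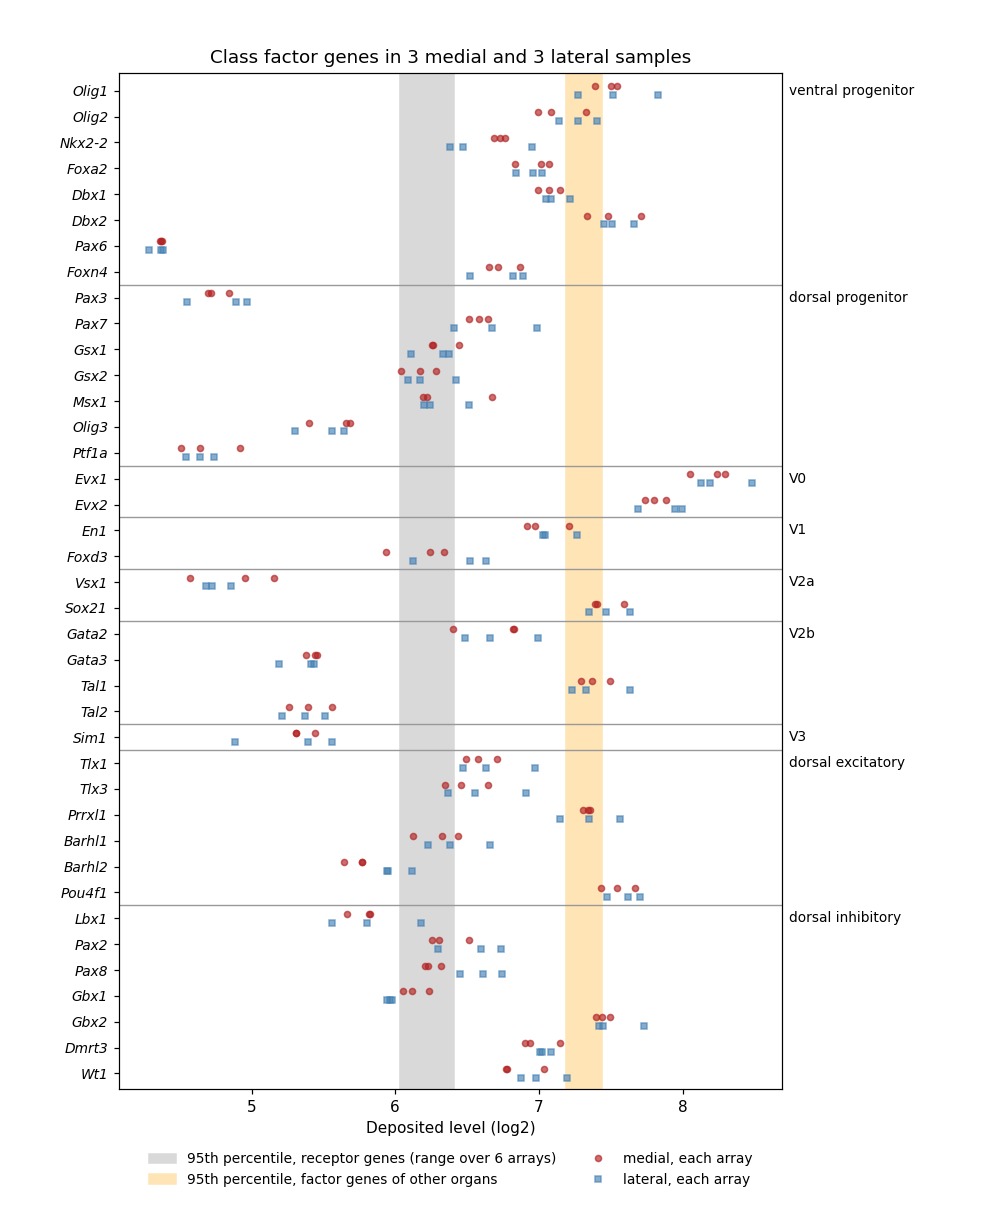
Deposited level (log2, horizontal axis) of the 39 class factor genes (vertical axis, grouped by class) in each of the 3 medial samples (circles) and 3 lateral samples (squares). Grey and orange bands span, over the 6 arrays, the 95th percentile of the receptor rows (6.03 to 6.41) and of the factor genes of other organs (7.19 to 7.44); Evx1 and Evx2 lie to the right of both bands on every array, and the symbols of the groups overlap for 36 of the 39 genes.

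**Figure D2:**
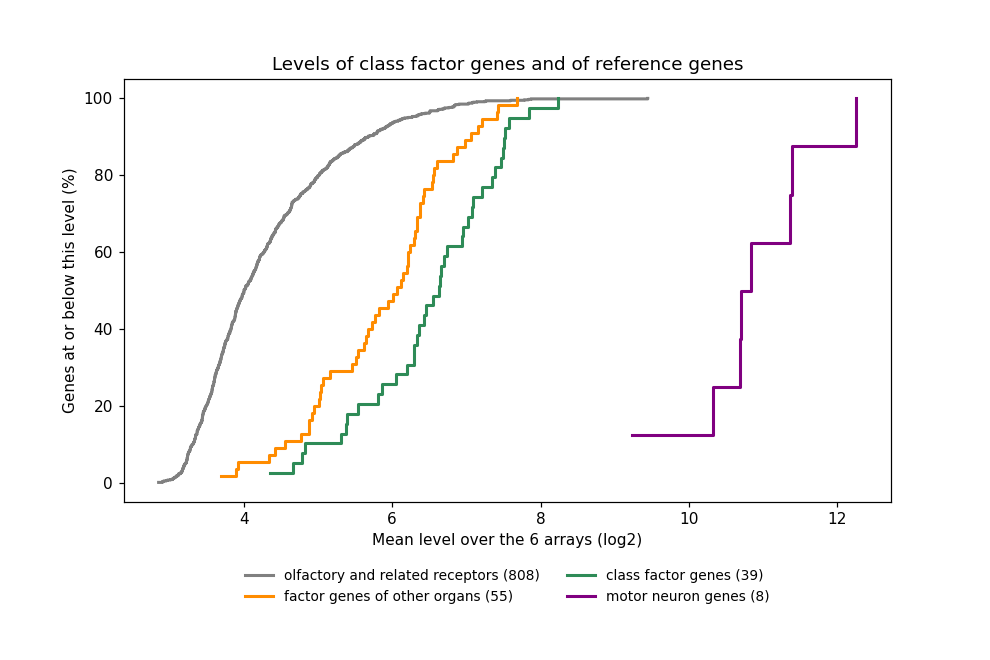
Cumulative share of genes (percent, vertical axis) by mean level over the 6 arrays (log2, horizontal axis) for the receptor genes, the factor genes of other organs, the class factor genes and the 8 motor neuron genes. The class factor genes have a median of 6.63, against 4.002 for the receptor genes and 6.07 for the factor genes of other organs, and their highest mean, 8.23, lies below all 8 motor neuron genes.

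The comparison of medial with lateral samples asked whether the column a motor neuron belongs to goes with any of these classes. In limma, 0 of the 39 genes passed an adjusted p of 0.05, against 3.07% of all 23332 rows. Among the 7174 rows with 1 symbol whose mean level lay within the range of the class factors (4.36 to 8.23), 3.78% passed. At an unadjusted p under 0.05, 2 of the 39 genes were reached, Pax8 and Barhl2, against 13.4% of all rows. The values of the groups did not overlap for 3 of the 39, Pax8, Barhl2 and Gbx1, against 19.3% of all rows. The median absolute difference was 0.07 on the log2 scale for the class factors and 0.11 for all rows. The smallest adjusted p was 0.164.

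The fit bounded the differences in measured signal. The 95% interval of the difference from the same fit lay within 1.5-fold in either direction for 37 of the 39 genes and within 2-fold for all 39. The exceptions at 1.5-fold were Foxd3, with a bound of 1.58-fold, and Pax8, with a bound of 1.502-fold. These bounds hold for the measured signal. Where a gene lies at background they do not bound the difference in its RNA. Of the 39 genes, 14 were above the receptor reference in neither group, and only 7 were above the second reference in both.

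**Figure D3:**
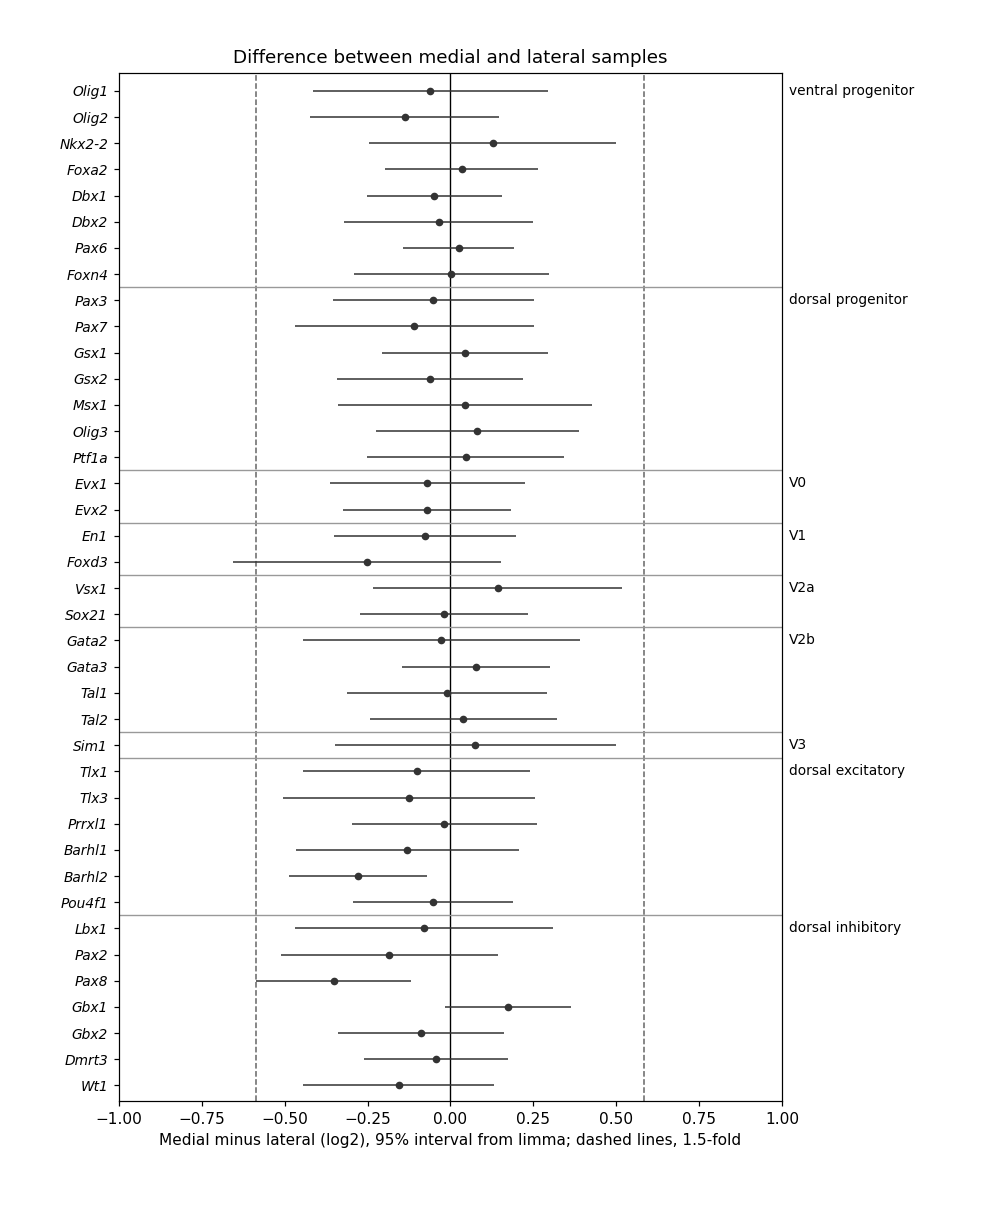
Difference of medial minus lateral means (log2, horizontal axis) for the 39 class factor genes, with the 95% interval from limma on 3 samples per group; dashed lines mark 1.5-fold. All intervals but those of Pax8 and Barhl2 include 0, and all but those of Foxd3 and Pax8 lie between the dashed lines.

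The ventral progenitor factors showed levels above the receptor reference for 7 of 8 genes in both groups. Only 2 of the 8, Olig1 and Dbx2, were above the second reference in both groups, and the others were above it in neither. Olig2, the basic helix-loop-helix factor of the motor neuron progenitor band, stood at 7.00, 7.33 and 7.08 in medial replicates 1 to 3 and at 7.14, 7.27 and 7.41 in lateral replicates 1 to 3. The groups overlapped, and the log2 difference was −0.14 ± 0.12 (SE, adjusted p = 0.719). Its neighbour on chromosome 16, Olig1, had medial values of 7.50, 7.55 and 7.39 and lateral values of 7.28, 7.51 and 7.83, and the lateral values enclosed the medial ones.

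Nkx2-2, which marks the band that gives rise to V3 interneurons, had medial values of 6.73, 6.77 and 6.69. Its lateral values were 6.38, 6.47 and 6.95, so lateral replicates 1 and 2 were below and replicate 3 above the medial samples. Foxa2, the winged helix factor of the floor plate, differed by 0.03 ± 0.10 (log2, SE). Dbx1 and Dbx2, which mark the bands of the V0 class and of its neighbours, differed by −0.05 ± 0.08 and −0.04 ± 0.12. Foxn4, which acts in the progenitors of the V2 class, differed by 0.003 ± 0.12. Pax6, a paired homeodomain factor of ventral and intermediate progenitors, was the lowest class factor measured, at 4.37 ± 0.01 (log2, SD, n = 3) in the medial and 4.34 ± 0.05 in the lateral samples. Its level was not above the receptor reference on any array, and its range over the 6 arrays, 0.09, was the smallest of the 39 genes.

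The dorsal progenitor factors were lower against the references. Of 7 genes, 1 (Pax7) was above the receptor reference in both groups, Gsx1 in the medial group by this count, and 5 in neither. Some of these misses were narrow. Msx1 was below the bound on medial replicate 3 (6.19 against 6.25) and lateral replicate 2 (6.242 against 6.254), and above it on the other arrays. Gsx1 was below it only on lateral replicates 1 (6.11 against 6.14) and 3 (6.332 against 6.340). Pax7, a paired box factor of the dorsal cord, had medial values of 6.51, 6.64 and 6.58 and lateral values of 6.41, 6.68 and 6.98, which enclosed the medial ones. Pax3, its close relative, had a mean of 4.75 ± 0.08 in the medial and 4.80 ± 0.22 in the lateral samples (log2, SD, n = 3). Gsx1 and Gsx2, homeobox factors of intermediate dorsal bands, differed by 0.04 ± 0.10 and −0.06 ± 0.12 (SE). Msx1, a homeobox factor of the dorsal midline, and Olig3, which marks the most dorsal bands, differed by 0.04 ± 0.16 and 0.08 ± 0.13. Ptf1a, which directs dorsal progenitors to an inhibitory fate, had a mean of 4.69 ± 0.21 (SD) in the medial and 4.64 ± 0.10 in the lateral samples. Differences in this class ranged from −0.11 to 0.08, and none passed.

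The V0 pair stood above every reference used here. Evx1, the homeobox factor that sets V0 identity, stood at 8.06, 8.29 and 8.24 in the medial and at 8.13, 8.19 and 8.48 in the lateral samples. Evx2 stood at 7.80, 7.89 and 7.74 in the medial and at 7.69, 7.95 and 8.00 in the lateral samples. The groups overlapped for both genes. Both were above the receptor reference, its 99th percentile, the second reference and the mean of Acta1, the highest of the skeletal muscle genes (7.44), on all 6 arrays, and they were the only 2 of the 39 genes to pass these 4 bounds in both groups. Such levels were not particular to the pair. Sox1 and Sox3, of the other class factors below, were above the second reference in both groups. Their means were 7.89 and 7.99 in the medial and 7.91 and 8.00 in the lateral samples. The log2 differences of Evx1 and Evx2 were −0.07 ± 0.12 (SE, adjusted p = 0.886) and −0.07 ± 0.11 (adjusted p = 0.855). The 95% intervals ran from −0.36 to 0.23 for Evx1 and from −0.33 to 0.18 for Evx2. In the RefSeq annotation Evx1 lies beside Hoxa13 and Evx2 beside Hoxd13.

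Of the V1 factors, En1, the homeobox factor that defines the class, had medial values of 6.92, 7.21 and 6.97 and lateral values of 7.04, 7.03 and 7.26. It was above the receptor reference in both groups and below the second one in both. The values overlapped, with a log2 difference of −0.08 ± 0.11 (SE). Foxd3, a winged helix factor of V1 neurons and of the neural crest, had medial values of 5.94, 6.24 and 6.34 and lateral values of 6.13, 6.63 and 6.52. It was not above the receptor reference by the rule, and its difference of −0.25 ± 0.17 had the widest bound of the 39 genes. Sox10, a defining gene of neural crest cells, was above the receptor reference on all 6 arrays and had a log2 difference of −0.04. It belongs to a list of 7 such genes of which 5 were measured, Foxd3 itself among them, and 0 of the 5 passed. The part of crest cells in the level of Foxd3 was not tested.

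Of the V2 factors, Sox21, a Sox factor of V2a neurons and of progenitors, stood at 7.39, 7.59 and 7.41 in the medial and at 7.35, 7.47 and 7.63 in the lateral samples. It was above both references in both groups and differed by −0.02 ± 0.11 (log2, SE). Vsx1, a homeobox factor of V2 precursors, was below the receptor reference, and its medial values of 4.57, 4.96 and 5.16 enclosed the lateral values of 4.72, 4.68 and 4.86. The V2b factors act together in 1 class but did not stand alike against the references. Gata2 and Tal1 were above the receptor reference in both groups, and Gata3 and Tal2 in neither. Gata3, the zinc finger factor that V2b neurons keep, stood at 5.44, 5.38 and 5.45 in the medial and at 5.19, 5.41 and 5.44 in the lateral samples. The 4 genes differed by −0.03 ± 0.17, 0.08 ± 0.09, −0.01 ± 0.13 and 0.04 ± 0.12 (log2, SE) for Gata2, Gata3, Tal1 and Tal2. Gata2 and Tal1 are also genes of blood and endothelium. Of the 4 blood genes measured, Gata1, Klf1 and Alas2 were below the receptor reference on every array, and Epor, the erythropoietin receptor, exceeded it on 4 of the 6. Of the 8 endothelial genes, Esam, an adhesion molecule, exceeded it on 5 arrays, the 3 lateral ones among them, and the other 7 on none. The mean level of the blood list per array ranged from 5.51 to 5.72 in the medial and from 5.53 to 5.66 in the lateral samples, and that of the endothelial list from 4.86 to 4.95 and from 4.83 to 5.01. None of these 12 genes passed the test between groups, and the part of such cells in the levels of Gata2 and Tal1 was not tested.

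The V3 class was represented by Sim1, a basic helix-loop-helix factor that marks it. Sim1 stood at 5.31, 5.44 and 5.31 in the medial and at 4.88, 5.39 and 5.56 in the lateral samples, below the receptor reference on every array. Lateral replicates 1 and 3 lay on opposite sides of the medial samples. The log2 difference was 0.07 ± 0.18 (SE, adjusted p = 0.919).

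Among the dorsal excitatory factors, 5 of 6 were above the receptor reference in both groups, and Pou4f1 was above the second reference as well. Pou4f1, a POU factor of several dorsal classes and of sensory neurons, stood at 7.54, 7.67 and 7.43 in the medial and at 7.48, 7.62 and 7.70 in the lateral samples. It differed by −0.05 ± 0.10 (log2, SE). Tlx1 and Tlx3, homeobox factors that select the glutamatergic fate in the dorsal horn, differed by −0.10 ± 0.14 and −0.13 ± 0.16. Prrxl1, a homeobox factor of dorsal horn and sensory neurons, differed by −0.02 ± 0.12. Of 8 measured genes of a sensory neuron list, 1 passed, Isl1, which is also a motor neuron gene. Of the genes that did not pass, P2rx3, an ATP-gated channel, had the smallest p. It stood at 7.09, 7.15 and 7.30 in the medial and at 6.84, 6.63 and 6.75 in the lateral samples, with groups that did not overlap and an adjusted p of 0.081. Ntrk2 and Ntrk3, neurotrophin receptors that motor neurons also express, had log2 differences of 0.30 and 0.36 (adjusted p = 0.198 and 0.351). These 3 genes, Runx3 and Isl1 were above the receptor reference in both groups, and Avil, Scn10a and Runx1 in neither. The part of sensory neurons in the levels of the dorsal factors was not tested.

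Barhl1 and Barhl2 are homeobox factors of the dI1 class. Barhl2 stood at 5.64, 5.77 and 5.77 in the medial and at 5.95, 5.95 and 6.12 in the lateral samples. The lateral values were all above the medial ones, and the log2 difference was −0.28 ± 0.09 (SE, unadjusted p = 0.0164, adjusted p = 0.214), which did not pass. All 6 values were below the receptor reference. Barhl1 had overlapping groups and a difference of −0.13 ± 0.14.

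The dorsal inhibitory factors held the largest difference. Pax8, a paired box factor of inhibitory neurons, stood at 6.21, 6.32 and 6.23 in the medial and at 6.45, 6.75 and 6.61 in the lateral samples. The 3 lateral values were above the 3 medial ones. The log2 difference was −0.35 ± 0.10 (SE, unadjusted p = 0.0099), and the adjusted p of 0.164 did not pass. Pax8 was above the receptor reference in the lateral group and, by the rule, not in the medial group. It was above the bound on medial replicate 1 (6.21 against 6.03). On medial replicates 2 (6.32 against 6.41) and 3 (6.23 against 6.25) it was below. This count does not show a difference between the groups for Pax8. Its relative Pax2, which marks most inhibitory classes, had medial values of 6.26, 6.51 and 6.30 and lateral values of 6.29, 6.60 and 6.73, which overlapped, and a difference of −0.18 ± 0.14 (adjusted p = 0.664). The transmitter genes of inhibitory neurons Gad2, Slc6a5 and Slc32a1 had log2 differences of −0.37, −0.21 and −0.08 (adjusted p = 0.144, 0.472 and 0.721) and were not above the receptor reference in either group.

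Gbx1, a homeobox factor of dorsal inhibitory neurons, was the 1 gene of the list whose medial values, 6.05, 6.12 and 6.24, were all above the lateral ones, 5.98, 5.94 and 5.96. Its difference was 0.17 ± 0.08 (log2, SE, adjusted p = 0.429), and it was not above the receptor reference in either group by the rule. Gbx2 was above both references in both groups, with medial values of 7.40, 7.49 and 7.44 and lateral values of 7.45, 7.42 and 7.73. Lbx1, the homeobox factor that separates the intermediate dorsal classes from their neighbours, lies beside Tlx1 in the annotation and had lateral values of 5.56, 5.80 and 6.18 around medial values of 5.82, 5.66 and 5.82. Dmrt3 and Wt1, which mark subsets of the dI6 class, were above the receptor reference in both groups and differed by −0.04 ± 0.09 and −0.16 ± 0.12.

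A single array moved with the class factors as a group. Lateral replicate 3 held the highest of the 6 values for 26 of the 39 genes (66.7%), and for 31.6% of the 7174 rows in the same range of levels. It also held the highest value for 67.3% of the 55 factor genes of other organs. The median deviation of the class factors from their own mean was 0.19 on this array and −0.13 on lateral replicate 1, which held no highest value and 15 of the lowest ones. The medians over all rows were alike on all arrays, from 6.73 to 6.84. With all samples, 26 of the 39 genes had a higher lateral than medial mean, and without lateral replicate 3 the count was 12 of 39. The median difference of the list was −0.05 with all samples, beside 0.02 over all rows, and 0.04 without this array. Pax8 and Barhl2 kept lower medial means without it, with differences of −0.35 and −0.22 and adjusted p-values of 0.313 and 0.397. Lateral replicates 1 and 2 were both above all medial values for these 2 genes of the 39. In the other direction, Nkx2-2 had a higher medial mean without this array, with a difference of 0.30, and did not pass.

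**Figure D4:**
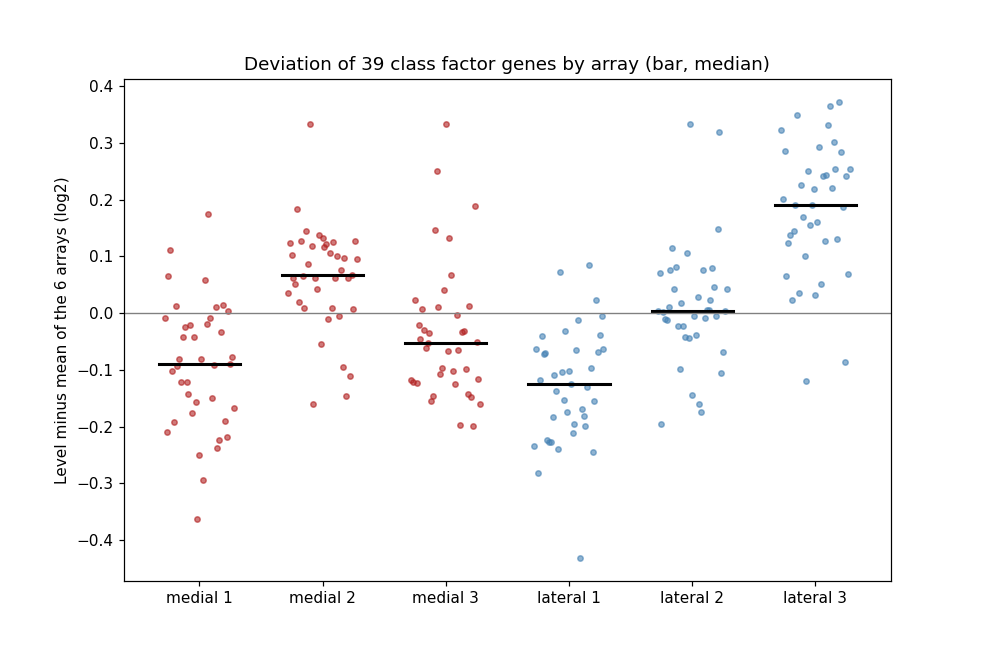
Deviation of each of the 39 class factor genes from its own mean over the 6 arrays (log2, vertical axis) on each array (horizontal axis), with a bar at the median of the array. The median on lateral replicate 3 is 0.19 and that on lateral replicate 1 is −0.13, so 2 samples of the same group lie at opposite ends.

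Some other transcription factors that mark cord classes did differ between the groups. Of 47 such genes outside the list, 35 were measured, of which 9 passed as higher in medial neurons and 6 as lower, with a median difference of −0.004, beside 0.02 over all rows. The higher ones were Lhx3, Lhx4, Irx3, Sox2, Zfhx3, Sp8, Bcl11a, Neurod1 and Neurod2, and the lower ones were Lhx1, Nkx6-1, Foxp2, Nr4a2, Mafa and Isl1. Several of these are factors of motor neurons themselves. Sp8, a zinc finger factor, had a mean of 9.08 ± 0.26 (SD, n = 3) in the medial and 6.40 ± 0.05 in the lateral samples. Foxp2, a forkhead factor also known from V1 neurons, had 6.39 ± 0.10 in the medial and 7.34 ± 0.18 in the lateral samples. Lhx1, which dorsal and ventral interneurons share with motor neurons of the lateral column, had 6.44 ± 0.26 in the medial and 9.02 ± 0.33 in the lateral samples. Lhx1 and Foxp2 were not above the receptor reference in the medial group by the rule, so their differences there are in measured signal. Of the 3 genes with the smallest p that did not pass, Nkx6-2, Prdm8 and Neurog2 had differences of −0.52, 0.33 and 0.35.

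Among 6 measured transmitter genes of interneurons, Slc17a6, which encodes a vesicular glutamate transporter, had a higher signal in medial neurons (adjusted p = 0.0089, log2 difference 1.02 ± 0.12, SE), and the other 5 did not pass. It was below the receptor reference on all lateral arrays and on that of medial replicate 2, so the difference is one of signal and no fold in its RNA is given.

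Of 10 neural progenitor genes, Sox2 alone passed. Its signal was higher in medial neurons by 0.63 ± 0.11 (log2, SE, adjusted p = 0.0376), but by the rule it was above the receptor reference in neither group, and no fold is given. The 3 genes with the smallest p among those that did not pass had higher medial means as well. These were Prom1, a membrane glycoprotein, with a log2 difference of 0.34 (adjusted p = 0.133), Msi1, an RNA-binding protein, with 0.31 (adjusted p = 0.26), and Fabp7, a lipid-binding protein, with 0.53 (adjusted p = 0.603). The groups did not overlap for Prom1 and Msi1 and overlapped for Fabp7. The mean level of the progenitor list per array ranged from 7.84 to 7.89 in the medial and from 7.62 to 7.82 in the lateral samples, and the part of progenitor RNA in the levels of the class factors was not tested.

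No gene passed among 7 cycling cell, 10 mesenchyme and cartilage, 8 myeloid or 7 skeletal muscle genes measured, nor among the crest, endothelial and blood genes above. Prrx1, a homeobox factor of limb and other mesenchyme, had the smallest p of the mesenchyme list, with medial values of 6.10, 6.39 and 6.56 and lateral values of 7.02, 7.19 and 6.62. The lateral values were all above the medial ones, and the log2 difference was −0.59 ± 0.18 (SE, adjusted p = 0.208). It was followed by Sox9 and Twist1, with differences of 0.23 and −0.11. In the other lists the genes with the smallest p were Mki67, Top2a and Cdk1 of cycling cells (0.14, 0.05 and 0.03), Pecam1, Cdh5 and Emcn of endothelium (−0.12, −0.11 and 0.10), C1qb, Aif1 and Cx3cr1 of myeloid cells (0.24, −0.10 and −0.18) and Des, Tnnt3 and Pax7 of muscle (−0.11, −0.06 and −0.11). Those of blood were Gata1, Alas2 and Klf1 (−0.10, −0.06 and 0.04), and those of the neural crest were Fabp7 and Foxd3, given above, and Mitf (−0.02), all as log2 differences.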

How the data were processed

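Per the labels' protocols, RNA of sorted cells was fragmented and biotinylated with a whole-transcript kit before hybridisation to arrays. The authors deposited 1 table of processed values, taken as log2 from their range. Summarization, background correction and normalization were not given in the sources used here, so centring between arrays is unknown. The submitters' processing notes name build mm9. The number of arrays limits the precision.

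Groups and replicate numbers came from the titles. Whether replicates came from separate litters is not stated, so p-values measure only the spread between these samples. The medial against lateral test used limma 3.58.1 (lmFit and eBayes in R 4.3.3, two-sided, no block) on the deposited log2 values. Its p-values were adjusted by Benjamini and Hochberg's method across the 23332 rows, at a threshold of 0.05. Gene names came from the platform's probe table and RefSeq (14996 rows with 1 symbol, 1019 with several, 7317 not listed). PowerExpress, named in the series design, was not run. The fit was checked on simulated data.

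The members and all lists were chosen with earlier results of these data known. All measured members and motor neuron genes are named, and of each other list those past the threshold and the 3 others with the smallest p. Other list genes (Sox1, Sox3, Sox10, Acta1, Epor, Esam, Runx1, Runx3, Avil and Scn10a) were named after their values were seen. Lists covered motor neurons, other class factors, interneuron transmitter genes, sensory neurons, progenitors, cycling, neural crest, mesenchyme, endothelial, blood, myeloid and muscle cells. Alternatives are given at the end.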

Additional observations from a re-analysis of the deposited data

How the results depend on the processing

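In limma, 0 of the 39 class factor genes passed in each of the 15 alternative fits, with the smallest adjusted p between 0.06 (array weights, Pax8) and 0.42 (without medial replicate 1). These fits were quantile normalization, median centring, an intensity trend, robust eBayes, array weights, a filter on low rows that kept 28 of the 39, 1 row per gene, a fold of 1.5 added, the replicate block and each sample left out in turn. No direction was called, so the signs given above are descriptions: 27 of the 39 differences changed sign in at least 1 fit, and the largest shift was 0.20 on the log2 scale. The difference of Pax8 ranged from −0.43 to −0.28 and that of Barhl2 from −0.31 to −0.22. Over all rows the 717 calls became 326 to 538 with a sample left out, and fell by more than 1.5 times without medial replicate 1, 2 or 3 (361, 377 and 326) or lateral replicate 2 (407). Of 110 genes on the other lists, 20 passed, and 13 to 20 with a sample left out, 13 without medial replicate 3. The count of class factors above background depended on the bound. It was 25 at the 95th percentile of the receptor rows, 30 at the 90th, 8 at the 99th, 4 against the highest skeletal muscle mean and 8 against the factor genes of other organs, a bound added after the data were seen. It was 25 or 26 with a sample left out.

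Replicate numbers are shared by the groups, but the labels do not say what they mark. Deviations of samples with the same number correlated over all rows with r = 0.35, 0.07 and 0.02 for numbers 1, 2 and 3, and medial replicate 2 correlated best with lateral replicate 3 (0.30), so the numbers were not taken as pairs. With the replicate block 481 rows and 0 of the 39 class factors passed. Of the 110 other list genes 14 passed with it, 10 higher and 4 lower in medial neurons, against 12 higher and 8 lower without it.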
